A study of Mus musculus with 2 samples.

Results

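Transcripts of the BCL2 family, the proteins that decide whether mitochondria release the factors that kill a cell, were compared between LPS-treated dendritic cells with and without miR-155. The members were 10 named genes, and every probe set that the platform annotation gives to exactly 1 of them was used. That gave 29 probe sets for 9 genes, out of 34945 such probe sets for 18193 genes. No probe set was listed under Bax, which is not analysed here. The wild type + LPS group was C57BL/6J marrow differentiated with 20 ng/ml GM-CSF and given medium with 10 ng/ml LPS after 7 days. The miR155-/- + LPS group had the same strain, growth factor and LPS but carried the miR-155 knockout. Each group was 1 Affymetrix array, and neither the LPS exposure time nor the number of mice is given in the sources used here. There were no untreated cells, so the response to LPS was not measured, and miR-155 was missing from the whole culture rather than from dendritic cells alone.

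Cells of the myeloid lineage die or survive largely by the balance inside this family. BCL2, BCL-xL and MCL1 hold the mitochondrial outer membrane closed, BAX and BAK open it, and the BH3-only proteins bind the survival proteins or the pore formers and tip the balance towards death. Opening the membrane releases cytochrome c, which assembles with APAF1 to activate caspase-9. MCL1 is short-lived and is needed by many myeloid cells, and BIM is known to limit the lifespan of dendritic cells.

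The deleted microRNA is shown because the only genetic difference named in the labels is its loss. Both mature strands come from RefSeq (GRCm38.p6, plus strand of chromosome 16), the 5p strand at chr16:84714143-84714165 and the 3p strand at chr16:84714182-84714202. Capitals mark the seed, bases 2 to 8, which pairs with target transcripts.
mmu-miR-155-5p: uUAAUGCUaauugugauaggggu
mmu-miR-155-3p: cUCCUACCuguuagcauuaac
The strands have different seeds, and which members carry a site for either was not analysed here. Mir155hg, the host transcript of miR-155, had normalized intensities of 1136 (wild type) and 159.3 (knockout).

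Of the 9 members, Pmaip1 alone differed by at least 1.5-fold. Pmaip1 encodes NOXA, a BH3-only protein that binds MCL1 and promotes its removal. The deposited intensity of Pmaip1 in wild-type cells was 684.5 and in knockout cells 2057. Quantile normalization, which gives both arrays the same distribution, made these 843.3 and 1669. That is 0.99 on the log2 scale (knockout minus wild type, 1.98-fold). The other 8 members lay between -0.19 and 0.22, with a median of -0.02. In all, 5 members were higher and 4 lower, against 51.5% and 48.5% of all measured genes. At the 1.5-fold limit 543 of 11878 measured genes, 4.57%, were at least 1.5-fold higher in knockout cells and 4.1% at least 1.5-fold lower. At these shares a list of 9 genes may hold 1 such gene. Because each genotype has a single array, no spread between replicates can be computed and no test was made. The differences describe these arrays.

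The only error available is how far probe sets of one gene disagree about that gene's difference. Over 11653 probe sets of 4410 genes that lay above the floor on both arrays, the SD was 0.29 (log2), and 0.25 among genes of high signal. The floor is the median of all normalized values, an intensity of 67.6; values under it were set to it, and a gene or probe set counted as measured where at least 1 array was above it. Of the members' 29 probe sets 24 were measured. All 8 members other than Pmaip1 differed by less than this SD, as did 67.3% of all measured genes. Direction among these 8 therefore cannot be read. Pmaip1 has 1 probe set on the array, so no second one exists to set beside its value.

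**Figure D1:**
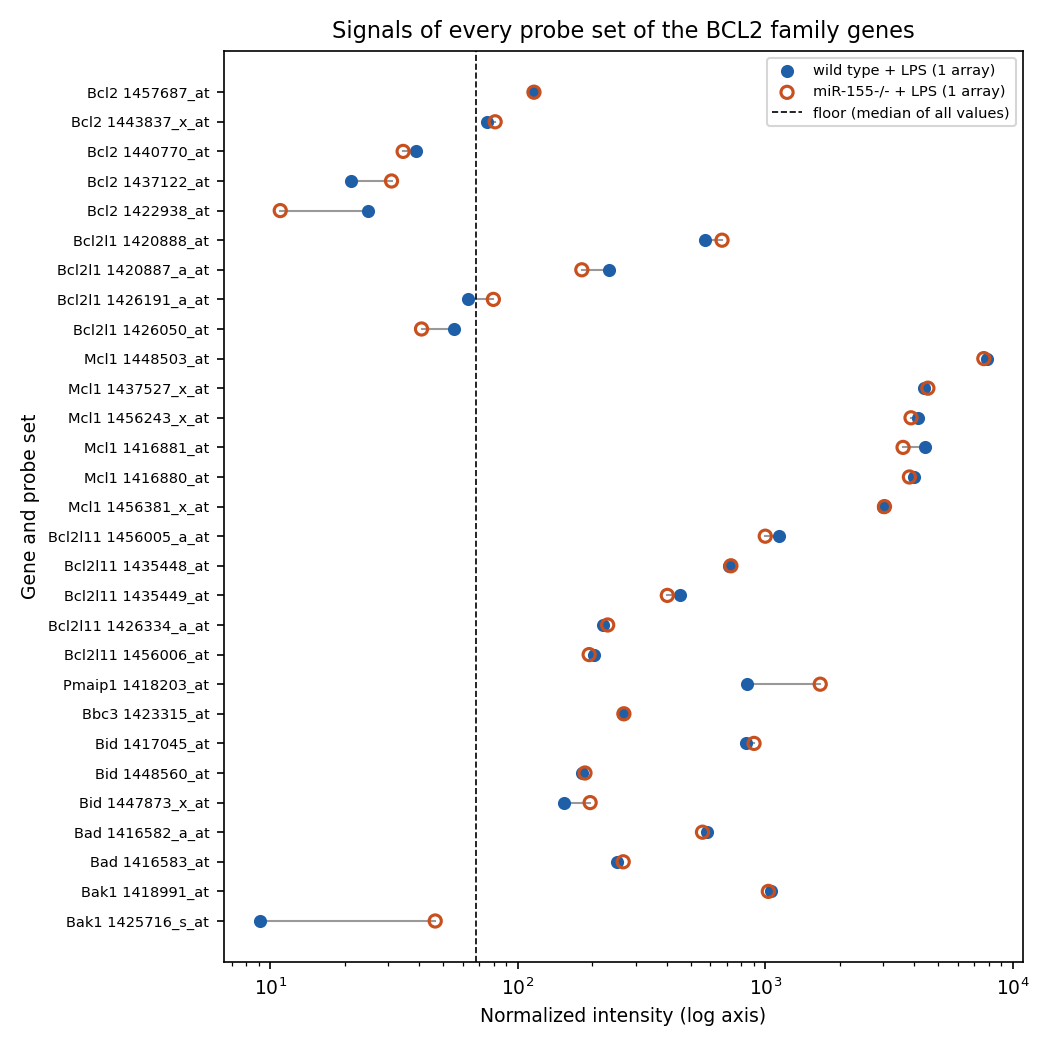
Normalized intensity (horizontal, log axis) of each of the 29 probe sets of the 9 members, wild type as filled and knockout as open circles, 1 array each, with the floor of 67.6 as a dashed line. The line between the circles is long above the floor for Pmaip1, from 843.3 to 1669, and long also for dim probe sets of Bcl2 and Bak1 that lie wholly below the floor.

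Among the survival genes, Mcl1 was bright and nearly the same on both arrays. Mcl1 encodes the short-lived survival protein that NOXA binds. Its leading probe set had 7855 in wild-type and 7646 in knockout cells, a difference of -0.04. The other 5 Mcl1 probe sets, with normalized intensities from 3005 to 4544, were all above the floor, and all 6 together ranged from -0.30 to 0.05, with 2 higher and 4 lower. Their SD was 0.12. The probe sets of Mcl1 thus lay within a narrow band around no difference, except for the lowest, which had 4444 in wild-type cells and 3607 in the knockout.

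Bcl2l1, which encodes BCL-xL and can also be spliced to a death-promoting short form, gave probe sets that disagreed. The brightest had 573.6 in wild-type and 669.6 in knockout cells (0.22), and the next had 234.9 and 181.7 (-0.37). The third was above the floor in knockout cells only, at 62.7 against 79.8, a difference of at least 0.24. The fourth, at 55.2 and 40.9, was below the floor on both arrays. The SD over the measured 3 was 0.35, wider than the 0.22 of the gene's leading value, and which splice form each probe set reads was not analysed here.

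Bcl2, the founding survival gene of the family, was dim. Of its 5 probe sets, 3 lay below the floor on both arrays. The brighter of the other 2 had 114.9 in wild-type and 116.4 in knockout cells (0.02), and the dimmer had 75.3 and 81.1 (0.11). A value so close to the floor says little about whether the gene was expressed.

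The BH3-only genes, apart from Pmaip1, were measured with normalized intensities from 154.5 to 1138 and gave small differences. Bcl2l11 encodes BIM, which can engage every survival protein of the family. Its leading probe set had 1138 in wild-type and 1001 in knockout cells (-0.19). The other 4 Bcl2l11 probe sets ranged from -0.17 to 0.06, so that 3 of 5 were lower and 2 higher. Bbc3 encodes PUMA, a BH3-only protein best known as a p53 target, as is NOXA. Its single probe set had 267.1 in wild-type and 268.7 in knockout cells (0.01). Bbc3 had the smallest difference of the 9 members.

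Bid links death receptors to mitochondria once caspase-8 has cut its protein. All 3 Bid probe sets were higher in knockout cells. The leading one had 833.5 in wild-type and 901.7 in knockout cells (0.11), the second 182.5 and 187.1 (0.04), and the third 154.5 and 196.3 (0.35). Only the dimmest of these passed the probe set SD. Bad, whose protein is held inactive by phosphorylation when growth factors are present, had 584.6 in wild-type and 558.3 in knockout cells (-0.07) at the leading probe set. Its other one had 251.3 and 267.0 (0.09). The Bad probe sets therefore pointed in opposite directions within 0.29.

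Bak1, the one pore-forming member with a listed probe set, had 1059 in wild-type and 1030 in knockout cells (-0.04). A second Bak1 probe set, an _s_at design that may read more than 1 transcript, had 9.12 and 46.5, both below the floor. Averaging it with the first gives 1.15 for the gene. That value comes from the dim probe set, while the bright one shows almost no difference.

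**Figure D2:**
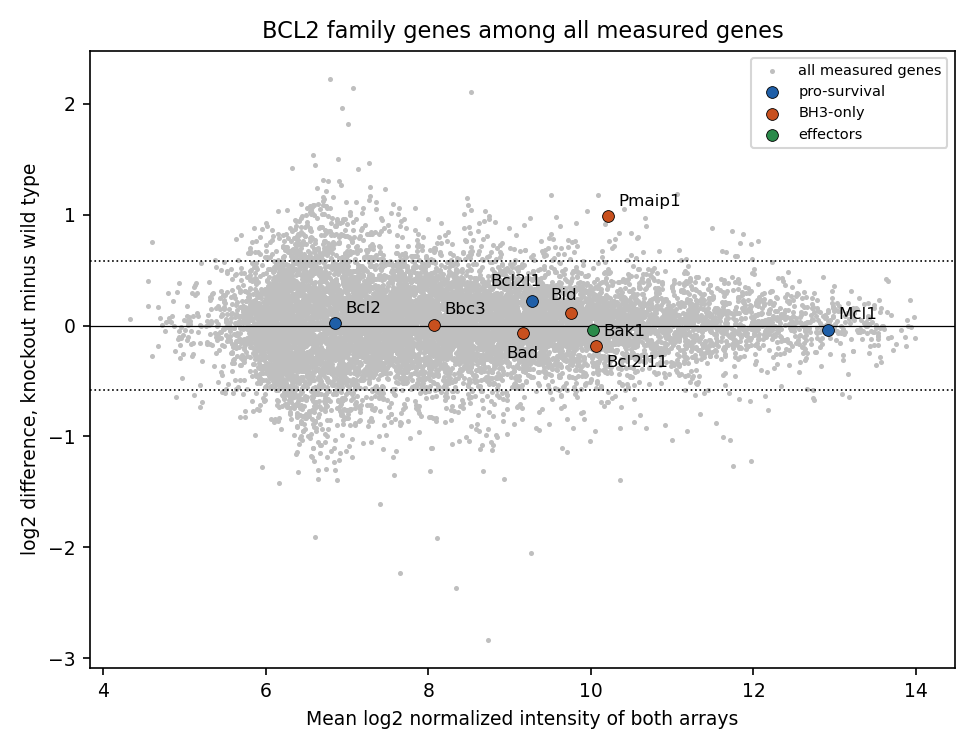
Difference between knockout and wild type (vertical, log2) against the mean log2 normalized intensity of both arrays (horizontal) for the 11878 measured genes in grey and the 9 members in colour by role; dotted lines mark 1.5-fold. Pmaip1 stands above the upper dotted line at 0.99, and the other 8 members lie between -0.19 and 0.22.

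Pmaip1 was read at a level where large differences were uncommon on these arrays. Among the 3960 genes with the highest mean signal when measured genes were split into 3 equal ranges, which hold Pmaip1, 78 were at least 1.5-fold higher in knockout cells (1.97%), against 4.09% of the middle and 7.65% of the lowest range. Over all measured genes, 72 had a higher difference than Pmaip1, and it fell just short of 2-fold, which 0.572% of genes passed as higher and 0.615% as lower. Pmaip1 was set against these shares as the member with the largest difference, so they do not measure how unusual it is.

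The gap between Pmaip1 and Mcl1, a comparison chosen after the values were seen, does not change when an array is multiplied by a constant. The difference of Pmaip1 exceeded that of Mcl1 by 1.02 after quantile normalization and by 1.18 on the deposited intensities. Taken against each of the 6 Mcl1 probe sets, it ran from 0.94 to 1.29. This is an unequal change of the transcripts between the arrays and not a ratio of NOXA to MCL1 protein.

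Scaling sets the zero from which each member is read. On the deposited intensities the median measured gene was 0.54 higher in the knockout array, all 9 members were higher, and Pmaip1 was at 1.59. Relative to the median gene it was then 1.05 higher, and the other 8 ran from -0.13 to 0.30. With arrays centred on the median, the median measured gene was at 0.14, Pmaip1 at 1.16 and 2 members were lower. With scaling on 18 hybridisation controls these values were 0.23, 1.26 and 0. With loess, Pmaip1 was at 0.99. Pmaip1 was higher under each of these scalings, while the directions of Mcl1, Bcl2l11, Bad and Bak1 flipped with the deposited intensities and with scaling on the controls, and those of Bad and Bak1 also with centring. Averaging all probe sets turned Bcl2l1 (-0.06), Bad (0.01) and Bak1 (1.15).

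**Figure D3:**
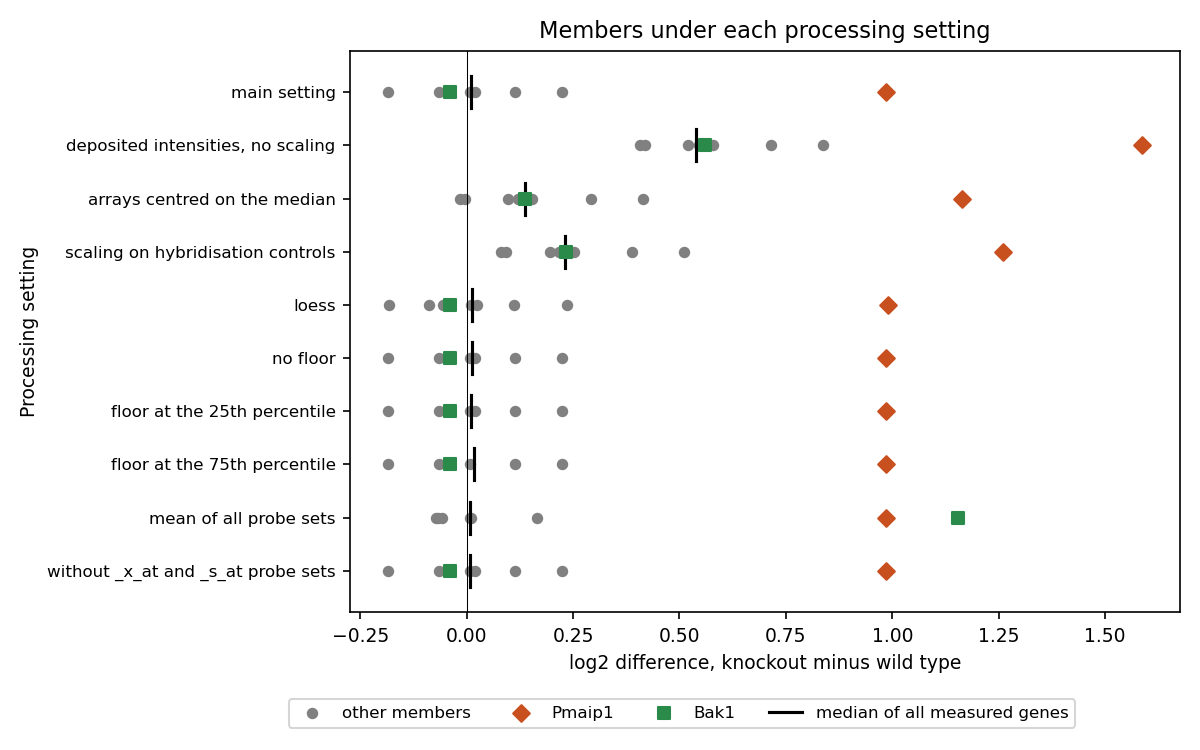
Difference between knockout and wild type (horizontal, log2) of each measured member under the main processing and 9 alternatives (vertical); the black bar is the median of all measured genes in that setting. Pmaip1 lies between 0.99 and 1.59, and only the 4 scaling alternatives could move it, since it has 1 probe set, well above the floor. Bak1 joins it, at 1.15, only where all probe sets of a gene are averaged.

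The rest of the family was read from a list of 14 further genes, of which 10 had a probe set of their own and 8 were measured. Directions were split, 4 higher and 4 lower, and the median was -0.02 against 0.01 for all measured genes. None passed 1.5-fold, which 4.57% of all measured genes passed as higher and 4.1% as lower. Hrk, a BH3-only gene known mainly from neurons, had 92.7 in wild-type and 128.7 in knockout cells (0.47) on its 1 measured probe set, close to the floor. Bmf, a BH3-only gene whose protein is tethered to the cytoskeleton, had 335.4 and 391.8 (0.22), with both measured probe sets higher. Bcl2l2, which encodes the survival protein BCL-w, had 334.1 and 295.6 (-0.18). Bcl2l12 was above the floor in wild-type cells only at the probe set used and at least 1.38-fold lower. Its other probe set was above the floor in knockout cells only and at least 1.30-fold higher. The Bcl2a1 genes, survival genes induced by NF-kB, appear on 3 probe sets that the annotation gives to several of them, so no value is given for any one.

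Genes that act after the membrane opens, together with partners in the outer membrane (the Vdac genes and Mtch2), were read from a list of 13. Of these 11 were measured, 6 higher and 5 lower, with a median of 0.02. None passed 1.5-fold, beside 4.57% of all measured genes as higher and 4.1% as lower, shares at which a list this short may hold none. Aifm1, a mitochondrial flavoprotein gene linked to caspase-independent death, had 522.5 in wild-type and 644.3 in knockout cells (0.30) on 1 probe set. Casp9, the initiator caspase of this pathway, had 308.4 and 365.8 (0.25), but its second measured probe set was lower (-0.40). Cycs, the cytochrome c gene, had 7767 and 8914 (0.20), with 3 of 3 measured probe sets higher. Apaf1, the scaffold that cytochrome c binds, had 882.7 and 841.0 (-0.07), but its second measured probe set was higher (0.17).

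Genes known to act on family members formed a list of 26 names. Of these 22 were measured, 12 higher and 10 lower (51.5% and 48.5% among all measured genes), with a median of 0.05. At the leading probe sets none passed 1.5-fold, beside the same 4.57% and 4.1% of all measured genes. Bcl6, a transcriptional repressor, had 438.7 in wild-type and 611.3 in knockout cells (0.48). Its second probe set, close to the floor in wild-type cells, had 75.2 and 120.1 (0.68), which is past 1.5-fold. Akt2, a kinase gene of the pathway that phosphorylates BAD, had 518.8 and 372.7 (-0.48) at an _s_at probe set. Its second measured probe set was nearly the same on both arrays (117.8 and 115.4, -0.03). Trib3, a stress-induced pseudokinase gene, had 137.5 and 184.9 (0.43), with 1 of 2 probe sets higher. Foxo3, a transcription factor gene that can drive Bcl2l11 and Bbc3, had 542.5 and 617.2 (0.19). Huwe1, which encodes a ubiquitin ligase of MCL1, and Usp9x, which encodes a deubiquitinase of MCL1, had differences of 0.11 and 0.09. Their probe sets disagreed, with 2 of 3 measured ones higher for Huwe1 and 3 of 5 for Usp9x.

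**Figure D4:**
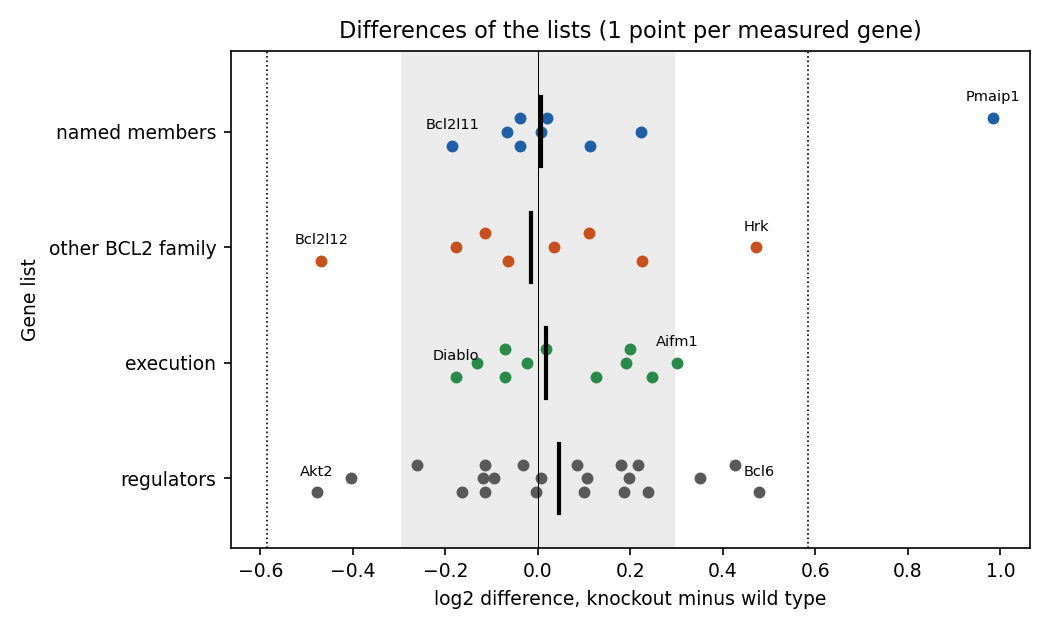
Difference between knockout and wild type (horizontal, log2), 1 point per measured gene, for the members and 3 further lists (vertical); black bars are medians, the grey band is the probe set SD of 0.29 on each side of 0, dotted lines mark 1.5-fold, and points are set apart vertically for legibility. Only Pmaip1 lies beyond a dotted line.

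The labelled cell type was checked against its markers. All 12 dendritic cell markers were measured, among them Itgax (4290 and 5331), Cd74 (11584 and 11156) and H2-Ab1 (4407 and 3896 in wild-type and knockout cells), with a median difference of -0.12. Of these 9 were lower and 3 higher in knockout cells (summed 47756 and 43002). Irf8, a transcription factor gene of dendritic cell development, was 1.58-fold lower (4551 and 2874). Ccr7 (-0.55), Cd86 (-0.51) and Zbtb46 (-0.43) were also lower. Irf4 (-0.28), H2-Ab1 (-0.18), Cd74 (-0.05), Fscn1 (-0.02) and Batf3 (-0.02) were lower by under 0.29, the spread between probe sets of one gene. Their direction cannot be read. The 3 higher ones were Flt3 (0.39 or more, above the floor in knockout cells only), Dpp4 (0.35) and Itgax (0.31). Markers of other cells were read in the same way, beside 48.5% of all measured genes that were lower. All 6 measured B and plasma cell markers of 9 were lower in knockout cells, with Cd79a and Pax5 below the floor on both arrays. Their summed intensity, taken before the floor was applied as in all these sums, was 1749 and 419.7. Ighm (734.1 and 142.3) and Jchain (436.4 and 92.6) made up most of both sums. Cd79b, Ms4a1, Mzb1 and Spib were below the floor in knockout cells. All 6 measured mast cell and basophil markers of 8 were lower (summed 3317 and 1740), with Fcer1a and Mcpt4 below the floor. Hdc made up most of both sums (2624 and 1411). Mcpt8 (-1.42 or lower), Cpa3 (-1.14 or lower) and Gata2 (-0.49) also passed 0.29. Kit was nearly the same on both arrays (134.5 and 129.6, -0.05). Ms4a2 was close to the floor in wild-type cells and below it in knockout cells (73.9 and 14.5). Granulocyte markers were lower in 8 of 11 measured of 12, though their sum was 12088 and 14162. Macrophage markers were higher in 5 of 8 measured of 9 (summed 35501 and 35853), including Mrc1 (1.06) and Mertk (0.81). The other higher ones were Adgre1 (0.20), Csf1r (0.20) and Cd68 (0.23). The 3 lower ones were Cd14 (10690 and 7911, -0.43), Fcgr1 (-0.24) and C5ar1 (-0.13). All of these macrophage markers but Mrc1, Mertk and Cd14 differed by under 0.29, so their direction cannot be read. Of 9 T and NK cell markers 3 were measured, 2 higher and 1 lower (summed 457.9 and 371.9), with Cd3e, Cd3g and Ncr1 below the floor. The lower one was Thy1 (256.4 and 118.1). The part of these cells in the difference of Pmaip1 was not tested, and in bulk RNA fewer cells of a type cannot be told apart from less RNA per cell.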

How the data were processed

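Per the labels' protocols, 6 ug of total RNA per sample was turned into biotinylated cRNA for Affymetrix arrays. The authors deposited a linear signal intensity for 45101 probe sets on each of 2 arrays. The summary method, scaling and detection calls were not given in the sources used here. Without 64 control probe sets the median intensity was 58.4 in wild type and 78.3 in knockout, a gap over the 10% set as the limit, so log2 intensities were quantile normalized. The floor was the median normalized value. Gene names came from the platform annotation, in which 34945 probe sets name 1 gene, 932 several and 9160 none, updated to GRCm38.p6 symbols. Each gene took the value of its brightest probe set (mean of both arrays).

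The members and lists were chosen with earlier results of these data known. All members are named. Of the other lists, genes at 1.5-fold or more were to be named, otherwise the 3 with the largest absolute difference above the floor on both arrays; Bcl2l12, Apaf1, Foxo3, Huwe1 and Usp9x were added after their values were seen. Likeness of pattern has no meaning over 2 arrays, and protein sequences are not used here. The number of arrays limits the precision. The steps were tested on simulated data. Python 3.11.15, numpy 2.4.6, pandas 2.3.3 and statsmodels 0.14.6 were used, with 9 alternative settings.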

Additional observations from a re-analysis of the deposited data

How the results depend on the processing

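No paired analysis was possible because each genotype is 1 array. Of 79 member values under the 9 alternatives, 69 moved by less than the probe set SD of 0.29. Of the 10 that moved further, 9 came from the deposited intensities with no scaling and 1 from averaging all probe sets (Bak1, 1.15). Many of the 69 could not move. Under each other floor, and without _x_at and _s_at probe sets, every member with a value kept its main value. The leading probe sets lay above those floors and were not of those designs. With no scaling the median difference was 0.56 for the members, 0.52 for the pro-survival members, 0.58 for the BH3-only members, 0.56 for the effectors, 0.55 for the other BCL2 family genes, 0.62 for the execution genes and 0.62 for the regulators, beside 0.54 for all measured genes. In that setting 9 members were higher and 0 lower, and 3 passed 1.5-fold (Pmaip1, Bcl2l1 and Bid), which 43.5% of all measured genes passed as higher. With scaling on hybridisation controls 9 members were higher and 0 lower, where the median measured gene was itself 0.23 higher. With arrays centred on the median 2 members were lower, where the median measured gene was 0.14 higher. The shares of all measured genes in each direction are not given for these settings, so the counts follow the scaling and are not read as a result about the members. With the mean of all probe sets, the median of the effectors was 1.15 and 2 members passed 1.5-fold, Pmaip1 and Bak1, the latter through a probe set below the floor on both arrays. Bcl2 gave no value with the floor at the 75th percentile or with averaged probe sets, where both its values lay under the floor. Pmaip1 ranged from 0.99 to 1.59, and with 1 probe set only the 4 scaling alternatives could move it.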
